A study of Mus musculus with 48 samples.

Results

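*Hcrt*, *Pmch*, *Nts*, *Npvf* and *Qrfp* encode neuropeptide precursors of the lateral and dorsomedial hypothalamus that are known for their part in arousal, feeding and sleep. They were taken by name from the table of UMI counts, where each has 1 row, and are 5 of the 16510 genes measured. Single-cell RNA-seq (scRNA-seq) had been performed on the mouse hypothalamus at E18.5, in control embryos (*Eed fl/fl*) and in *Eed-cKO* embryos (*Eed fl/fl*; *Sox1-Cre/+*). *Eed* encodes a core subunit of the Polycomb Repressive Complex 2 (PRC2), and both genotypes carried the floxed allele and came from a mixed B6 and 129S1 background. The Cre sits in the *Sox1* locus and is active in the whole developing CNS, so *Eed-cKO* embryos also differed from control by 1 Cre-bearing *Sox1* allele, an effect that cannot be told apart from that of *Eed*. There were 6 control embryos, in 22 libraries, and 9 *Eed-cKO* embryos, in 26 libraries, with both sexes in each genotype. Hypothalami had been cut into pieces before dissociation and the labels give an embryo for each library, so the libraries of an embryo were summed and the embryo was the replicate.

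*Hcrt* (hypocretin, also named orexin) and *Pmch* (pro-melanin-concentrating hormone, MCH) mark separate neuron types of the lateral hypothalamus: hypocretin neurons sustain wakefulness, and MCH neurons are active in sleep and promote feeding. Neurotensin, the product of *Nts*, is made by several kinds of hypothalamic neuron, some GABAergic and some glutamatergic, and acts on wakefulness, body temperature and energy balance. *Npvf* encodes the RFamide peptides of the dorsomedial hypothalamus that restrain gonadotropin release, and *Qrfp* encodes an RFamide that stimulates feeding. All are cut from larger precursors by shared processing enzymes in secretory granules.

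In the GENCODE annotation of GRCm38 (mm10), *Hcrt* lies on the minus strand at chr11:100761069-100762931, *Pmch* on the plus strand at chr10:88091072-88092375, *Nts* on the minus strand at chr10:102481756-102490486, *Npvf* on the minus strand at chr6:50650672-50654439 and *Qrfp* on the minus strand at chr2:31806166-31810580. *Hcrt*, *Pmch* and *Npvf*, the members called lower in *Eed-cKO* below, each have a TATA box sequence shortly before the start. Their promoters are shown for that reason, as the 150 bases before the RefSeq start on GRCm38.p6, 5′ to 3′ on the gene's strand, with the letters TATAAA in capitals:
Hcrt (chr11:100762932-100763081, minus strand): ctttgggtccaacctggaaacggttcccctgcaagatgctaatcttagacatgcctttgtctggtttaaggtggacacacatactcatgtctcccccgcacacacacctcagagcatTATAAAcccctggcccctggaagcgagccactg
Pmch (chr10:88090922-88091071, plus strand): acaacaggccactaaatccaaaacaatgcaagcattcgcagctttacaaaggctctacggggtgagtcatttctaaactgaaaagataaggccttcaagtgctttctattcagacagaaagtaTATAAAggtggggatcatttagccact
Npvf (chr6:50654446-50654595, minus strand): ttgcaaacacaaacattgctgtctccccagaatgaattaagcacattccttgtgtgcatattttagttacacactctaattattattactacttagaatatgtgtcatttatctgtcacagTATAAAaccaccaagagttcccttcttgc
The first base of TATAAA lies 33, 27 and 29 bases before the start, respectively. TATAAA, searched on both strands in the 250 bases before the start, was present in 12.4% of 32851 windows, and in neither the *Nts* nor the *Qrfp* window. Only these exact letters were searched, and the *Nts* window holds the similar run TATATATA, which the search does not count. A link between these letters and the calls was not tested. The AP-1 sequence TGAGTCA, present in 4.46% of windows, began 88 bases before the start in *Pmch* and 207 bases before it in *Nts*. *Npvf* had the homeodomain core TAATTA at 2 places, a sequence in 4.84% of windows. The E-box CACGTG (6.02% of windows) and the CRE TGACGTCA (1.55%) matched no member. *Npvf* had 0 CpG in its 250 bases, *Nts* 2, *Pmch* 3, *Hcrt* 5 and *Qrfp* 9, where the median window had 6 and the quartiles were 2 and 16. A match of letters is a description and not evidence of binding.

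The table held 14121 cells, 7186 control and 6935 *Eed-cKO*. Non-neural cells, i.e. endothelial, pericyte, vascular leptomeningeal and microglia or macrophage clusters, were set apart (347 control and 481 *Eed-cKO* cells), and the remaining 6839 control and 6454 *Eed-cKO* cells are called All-Hypo. Library medians ran from 2663 to 7532 UMIs per cell, and All-Hypo sums from 627508 UMIs (*Eed-cKO* embryo 2) to 7328566 UMIs per embryo. A library of control embryo 5 had 1207 cells, and every other library had at most 465. *Eed* itself was at 28.7 to 33.03 CPM in control and at 19.5 to 27.9 CPM in *Eed-cKO*, without overlap; the counts are 3′ tags of whole-gene transcripts, so RNA without the floxed exons can still be counted. The litter, read from the library names since the labels do not state it, never held both genotypes, so litter and genotype cannot be told apart. The summed level of the pituitary markers was 0.146 to 2.00 CPM in control, where *Pitx1* was at 0, and 4.52 to 103 CPM in *Eed-cKO*. The 5 vascular leptomeningeal markers were at 2.18 to 21.6 against 32.8 to 152 CPM, and the 3 thalamus markers at 132 to 730 against 90.4 to 460 CPM. The neuron markers were lower (8467 to 8950 against 7273 to 8226 CPM) and the tanycyte markers higher in *Eed-cKO* (36.1 to 66.0 against 131 to 246 CPM), both without overlap. The part of these differences in the results was not tested. There were 101 barcodes that occurred in more than 1 library.

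Of the 5 precursors, 3 were called lower in *Eed-cKO* hypothalami by edgeR's test. *Hcrt* was 24.5-fold lower, *Npvf* 6.73-fold lower and *Pmch* 6.36-fold lower by the fitted fold change. The calls of *Hcrt* and *Npvf* did not hold under every alternative, as given below, and *Npvf* had few UMIs. *Nts* and *Qrfp* did not pass the test. Levels were compared as CPM of TMM-normalized embryo sums with edgeR's quasi-likelihood test and Benjamini-Hochberg adjustment over 15773 genes, of which 25.9% were called and 11.6% were called lower. In sums over cells, fewer cells of a type and less RNA per cell cannot be told apart, and the counts per cell below show both.

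*Hcrt* was at 1.13, 1.81, 5.68, 2.16, 32.3 and 95.1 CPM in control embryos 1 to 6. In the *Eed-cKO* embryos it ran from 0 over a median of 0.803 to 2.01 CPM. Control embryos 5 and 6 were far above the others, and the lowest control embryos lay within the *Eed-cKO* range. The means were 23.0 ± 37.3 (SD, n = 6) and 0.933 ± 0.602 CPM (SD, n = 9). The log2 fold change was -4.61 (SE 0.89, edgeR's adjusted p = 0.000546), and it was -3.17 without control embryo 6, which still passed. In an exact permutation test of the CPM values over embryos, the adjusted p was 0.0173, whereas limma-voom with a minimum fold did not call *Hcrt* (-2.86, adjusted p = 0.134).

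*Pmch* was at 23.8, 149, 20.2, 76.0, 40.8 and 220 CPM in control embryos 1 to 6. In *Eed-cKO* embryos 1 to 9 it was at 70.9, 1.54, 0, 14.9, 7.90, 3.21, 8.60, 0.402 and 0.973 CPM. Of the 9 *Eed-cKO* embryos, 8 lay below the lowest control embryo, and *Eed-cKO* embryo 1 lay among the controls. The means were 88.4 ± 80.4 and 12.1 ± 22.6 CPM, and the log2 fold change was -2.67 (SE 0.63, edgeR's adjusted p = 0.00328). The exact permutation test of CPM gave an adjusted p of 0.0416. Without *Eed-cKO* embryo 1 the log2 fold change was -3.87, and edgeR's test still passed.

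*Npvf* had far fewer UMIs, with 0 to 7.94 CPM in control (median 1.69) and 0 to 2.09 CPM in *Eed-cKO* (median 0). The groups overlapped, and the log2 fold change of -2.75 (SE 0.84) passed edgeR's test (adjusted p = 0.0184) but not the exact permutation test of CPM (adjusted p = 0.0755). The call was also lost without control embryo 6 (-2.03, adjusted p = 0.0907 in edgeR's test), and the value was -4.12 without *Eed-cKO* embryo 7. *Qrfp* was at 0 to 1.96 CPM in control and 0 to 1.21 CPM in *Eed-cKO*, with a log2 fold change of -1.22 (SE 0.89, edgeR's adjusted p = 0.338). *Nts* was at 61.7 to 119 CPM in control (median 86.4) and at 12.3 to 107 CPM in *Eed-cKO* (median 55.0). The *Nts* means were 86.3 ± 22.9 and 59.9 ± 29.4 CPM, and the log2 fold change, -0.47 (SE 0.22), missed edgeR's threshold (adjusted p = 0.122). It passed without *Eed-cKO* embryo 1 (-0.60) or 8 (-0.61), the embryos of the highest *Nts* level in that genotype.

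**Figure D1:**
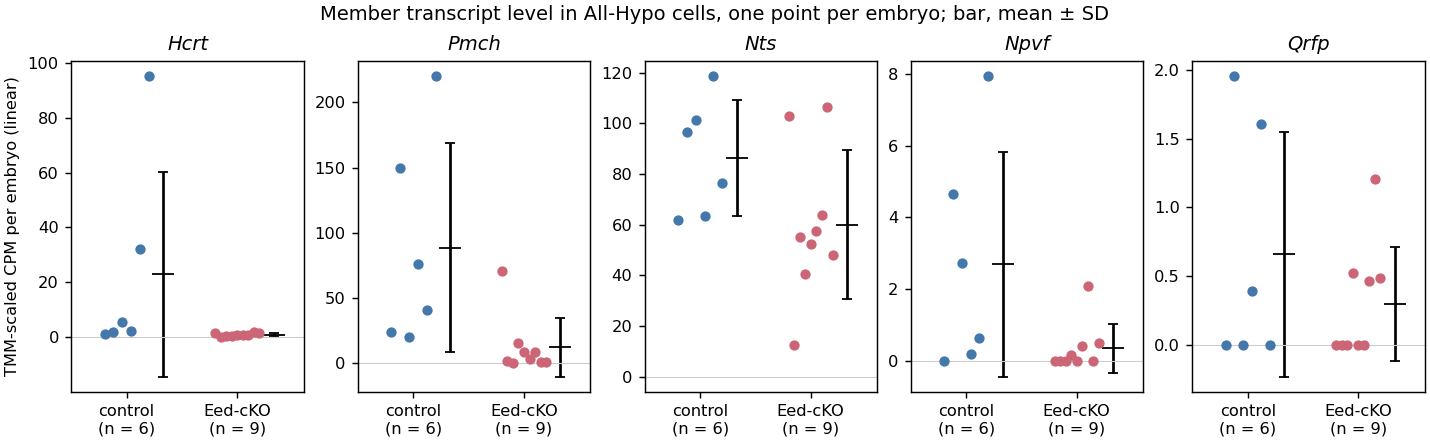
Level of each member as TMM-scaled CPM (linear axis, its own range in each panel) in the All-Hypo cells of 6 control and 9 *Eed-cKO* embryos, 1 point per embryo, with bars for the mean ± SD. The control points of *Hcrt* spread up to 95.1 CPM while the *Eed-cKO* points stay at or below 2.01, and for *Pmch* only *Eed-cKO* embryo 1 (70.9 CPM) stands among the controls.

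Very few cells held the *Hcrt* transcripts. In control, 59 All-Hypo cells held 943 *Hcrt* UMIs, and the 5 cells with at least 10 UMIs, here called high cells, held 93.2% of them with 436, 211, 188, 24 and 20 UMIs. In *Eed-cKO*, 29 cells held 31 UMIs, and none held more than 2. The share of high cells was therefore 5 of 6839 control cells (0.0731%, exact 95% binomial interval 0.0237 to 0.171%) and 0 of 6454 *Eed-cKO* cells, which allows a share of up to 0.0465%. These intervals cover counting error only, and with 5 cells in all no test of the embryos was made. Of the high cells, 3 came from control embryo 6, 1 from control embryo 5 and 1 from control embryo 3.

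Most of the genes known from hypocretin neurons that were looked up were found in the high *Hcrt* cells. *Nptx2*, a secreted pentraxin of synapses, was found in 5 of 5 cells with 31, 27, 27, 4 and 1 UMIs, in the order of their *Hcrt* UMIs. *Lhx9*, a transcription factor of developing hypocretin neurons, was found in 5 of 5 with 13, 5, 7, 4 and 1 UMIs. *Pdyn*, the dynorphin precursor, was found in 4 of 5, and so was *Slc17a6*, the vesicular glutamate transporter VGLUT2. *Ebf2*, a transcription factor gene of the same list, was found in 0 of 5. The GABA transporter gene *Slc32a1* was found in 0 of 5 and *Gad1*, a GABA-synthesizing enzyme, in 1 of 5. For comparison, *Slc17a6* was found in 51.5% of control neuron-like cells outside the high *Nts* cells described below. The corresponding shares were 17.0% for *Pdyn*, 11.8% for *Nptx2*, 7.70% for *Lhx9*, 30.6% for *Slc32a1* and 45.2% for *Gad1*. The high *Hcrt* cells held 2153 to 34367 UMIs in all (median 13561). Control neuron-like cells had a median of 5553.5 UMIs, so these shares do not compare cells of like depth. Of the high *Hcrt* cells, 4 fell in 1 neuron-like cluster, and 1 was among the cells marked as likely doublets.

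Single *Hcrt* UMIs were spread more widely. At least 1 UMI was found in 0.863% of control All-Hypo cells (median depth 4768 UMIs). Among control non-neural cells it was 0.865% (3 of 347, exact interval 0.179 to 2.51%, median depth 3946 UMIs). These shares were not separated, and the background rests on 3 cells. Within control All-Hypo, 1.02% of neuron-like cells were positive (53 of 5212, exact interval 0.763 to 1.33%). The share of astrocyte-like cells was 0.266% (1 of 376, exact interval 0.00673 to 1.47%). This difference was not tested. In *Eed-cKO*, 0.449% of All-Hypo cells (29 of 6454) were positive, and 0 of 481 non-neural cells, which allows up to 0.624%. Of the 29 cells, 28 were neuron-like, and 0 of 640 astrocyte-like cells were positive. Control cells with 1 to 9 UMIs made up 0.751% in the 4 libraries with a high cell and 0.796% in the 18 libraries without one. The share of cells with at least 1 UMI was 0.869 ± 0.234% in control and 0.434 ± 0.229% in *Eed-cKO* embryos (exact two-sided permutation test over embryos, p = 0.0026). It did not pass adjustment over 15651 genes (adjusted p = 0.0572), of which 3.82% were called. The mean number of *Hcrt* UMIs per positive cell was 1.10 to 52.5 in the 6 control embryos and 1.00 to 1.25 in the 8 *Eed-cKO* embryos with a positive cell (exact permutation p = 0.00233, unadjusted, 1 of 5 members tested). With every cell thinned to 2000 UMIs, this difference did not pass (exact permutation p = 0.182). With UMIs capped at 20 per cell, the log2 fold change of *Hcrt* was -2.19 and still passed edgeR's test.

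*Pmch* was held by more cells and remained in some *Eed-cKO* cells. In control, 109 All-Hypo cells held 3466 UMIs, and 19 high cells from all 6 embryos held 96.2% of them. The highest had 1202 UMIs, i.e. 34.7% of all control *Pmch* UMIs and 5.63% of its own transcripts. In *Eed-cKO*, 25 cells held 487 UMIs, and 7 high cells from 5 embryos had 275, 62, 44, 32, 23, 17 and 10 UMIs. The median was 102 UMIs for a high control cell and 32 for a high *Eed-cKO* cell. The cell with 275 UMIs belonged to *Eed-cKO* embryo 1, which held 298 in all.

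The share of cells with at least 1 *Pmch* UMI was 1.598 ± 0.563% in control and 0.376 ± 0.193% in *Eed-cKO* embryos. This difference passed the exact permutation test after adjustment over all genes (p = 0.0002, the smallest that the splits of the embryos allow; adjusted p = 0.0173), but not where at least 2 UMIs were asked of a cell (adjusted p = 0.0799). The share of high cells was 0.280 ± 0.136% in control and 0.0859 ± 0.0914% in *Eed-cKO* embryos, which did not pass (exact permutation p = 0.005, adjusted p = 0.064 over 1281 genes, of which 2.89% were called). The background in non-neural cells was 1.15% in control (4 of 347 cells, exact interval 0.315 to 2.93%) against 1.59% in All-Hypo, and 0.208% in *Eed-cKO* (1 of 481 cells) against 0.387%. Most positive cells had a single UMI (78 of 109 in control, 15 of 25 in *Eed-cKO*), and the control All-Hypo share lay within the interval of the non-neural share, so it was not separated from background. Among positive cells, the mean was 29.5 ± 24.8 UMIs in control and 13.1 ± 15.4 UMIs in *Eed-cKO* embryos, which did not differ beyond the spread of embryos in an exact permutation test (p = 0.158).

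Of the 19 high *Pmch* cells in control, 15 had *Slc17a6* and 13 had *Gad1*, while 2 had *Slc32a1* and 2 had *Gad2*. MCH neurons are known to make glutamate and to carry *Gad1*. *Cartpt*, a peptide precursor of a subset of MCH neurons, was found in 12 of 19, and *Tacr3*, the neurokinin B receptor of that subset, in 3. Of the 7 high cells in *Eed-cKO*, 5 had *Gad1*, 5 had *Cartpt* and 3 had *Slc17a6*. Among neuron-like cells outside the high *Nts* cells, *Slc17a6* was found in 51.5% in control and 63.8% in *Eed-cKO*. The corresponding shares were 45.2% and 57.2% for *Gad1* and 5.08% and 13.3% for *Cartpt*. Of the control cells, 12 fell in neuron-like cluster 8, 2 in neuron-like cluster 10, 2 in the astrocyte-like cluster and 1 in an unnamed cluster, and the *Eed-cKO* cells in clusters 8 (3 cells) and 11 (3 cells). In all, 5 control cells and 1 *Eed-cKO* cell were marked as likely doublets.

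*Parpbp*, a DNA repair gene, is annotated on the opposite strand with an exon that overlaps *Pmch*. *Parpbp* UMIs were found in 12 of 19 high *Pmch* cells (63.2%) but in 46 of 6820 other control cells (0.674%). In *Eed-cKO* they were found in 2 of 7 and in 49 of 6447 cells (0.760%). There were 1.32 *Parpbp* UMIs per 100 *Pmch* UMIs in the high cells of control and 1.51 in those of *Eed-cKO*. The strand setting of the counting is not given in the sources used here, so *Parpbp* transcripts and *Pmch* reads counted as *Parpbp* cannot be told apart.

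*Npvf* in control was held by 13 cells with 107 UMIs, of which 4 high cells had 55, 14, 12 and 11. *Lhx9* and *Slc17a6* were found in 4 of these 4 cells, *Nptx2* in 0 and *Gad1* in 1. They came from control embryos 6, 2, 2 and 3. In *Eed-cKO*, 9 cells held 13 UMIs, the highest with 4, and there were 0 of 6454 high cells. Of these, 7 cells with 11 UMIs lay in the astrocyte-like cluster, and *Eed-cKO* embryo 7 held 9 of the 13 UMIs. *Npvf* was found in 0 of 347 and 0 of 481 non-neural cells, which allow up to 0.865% and 0.624%. *Qrfp* was held by 11 control cells with 25 UMIs, the highest with 9, and by 6 *Eed-cKO* cells with 9 UMIs, the highest with 2. The shares of cells with at least 1 UMI, 0.184% and 0.133% for *Npvf* and 0.139% and 0.109% for *Qrfp*, did not differ beyond the spread of embryos (exact permutation p = 0.648 and 0.737). Among neuron-like cells alone, 12 of 5212 cells in control had a UMI of *Npvf*, against 1 of 4861 in *Eed-cKO*, i.e. 0.221 ± 0.154% and 0.0174 ± 0.0521% per embryo (too few cells for the test), and 1 of the 13 *Eed-cKO* UMIs lay in them.

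**Figure D2:**
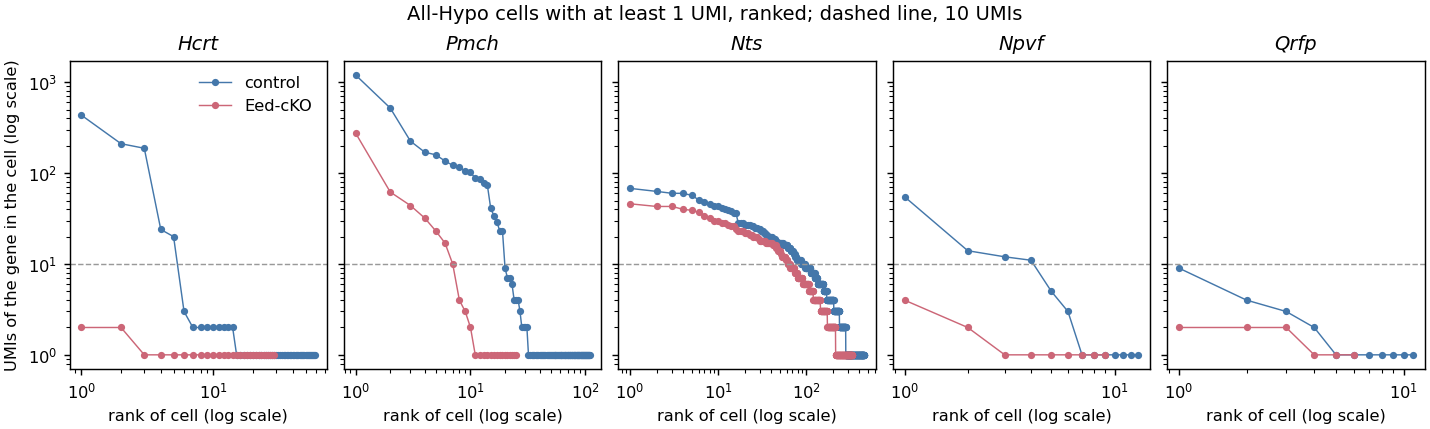
UMIs of each member in every All-Hypo cell with at least 1 UMI, ranked from the highest (both axes on a log scale; blue, control; red, *Eed-cKO*; dashed line, 10 UMIs). The control *Hcrt* curve and both *Pmch* curves drop from over 100 UMIs to 1 within few cells and the *Eed-cKO* *Hcrt* curve starts at 2, whereas the *Nts* curves decline slowly from 68 UMIs in control and 46 in *Eed-cKO*.

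Neuropeptide genes differed in how far a handful of cells held their transcripts. In control, the 10 highest cells held 97.2% of the UMIs of *Npvf*, 94.4% of *Hcrt* and 82.5% of *Pmch*, which ranked 1, 3 and 5 among the 25 neuropeptide genes with at least 100 UMIs. The measure is near its limit for genes found in few cells, such as *Npvf* (13 positive control cells) and *Pmch* in *Eed-cKO* (25). *Nts*, at 17.1%, ranked 21. The 21 other neuropeptide genes ranged from 6.32% to 96.6% (median 37.0%). In *Eed-cKO*, *Pmch* ranked 1 of 24 with 96.9%, and *Nts* ranked 18 with 18.0%, while *Hcrt* and *Npvf* had fewer than 100 UMIs. To reach 50% of the control UMIs took 1 cell for *Npvf*, 2 for *Hcrt*, 3 for *Pmch* and 53 for *Nts*.

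**Figure D3:**
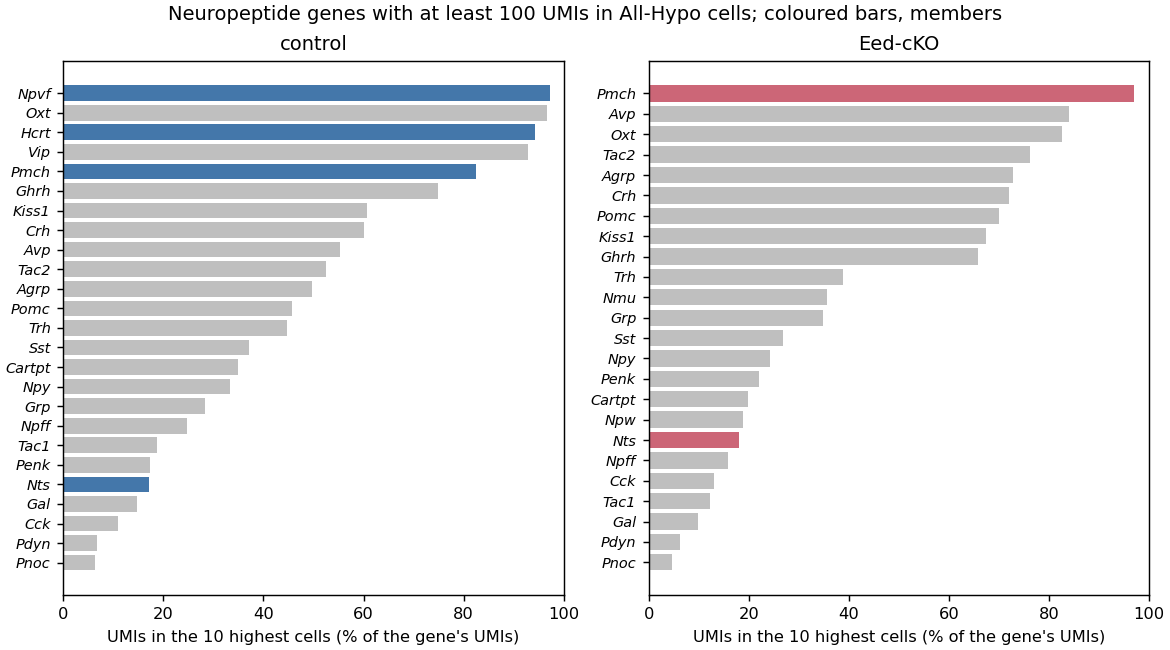
Share of a neuropeptide gene's UMIs held by its 10 highest All-Hypo cells (%, bars from 0), for genes with at least 100 UMIs in control (left, 25 genes) and *Eed-cKO* (right, 24 genes); members are coloured. *Npvf* (97.2%), *Hcrt* (94.4%) and *Pmch* (82.5%) stand near the top in control and *Nts* (17.1%) near the bottom.

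*Nts* was found in many more cells than the other members in both genotypes. In control, 456 All-Hypo cells held 3149 UMIs, and 97 high cells were found, with 15, 21, 17, 12, 17 and 15 in embryos 1 to 6. In *Eed-cKO*, 336 cells held 2082 UMIs, with 65 high cells and 15, 0, 7, 8, 8, 9, 8, 7 and 3 in embryos 1 to 9. *Eed-cKO* embryo 2, with none, was also the embryo of the fewest cells (208). Per embryo, 1.44 ± 0.302% of control and 0.911 ± 0.416% of *Eed-cKO* cells were high (exact permutation p = 0.0134, adjusted p = 0.0849), a difference that passed without control embryo 5 (adjusted p = 0.0436). The share with at least 1 UMI was 6.53 ± 0.905% and 5.05 ± 1.64%, respectively (exact permutation adjusted p = 0.321). Positive cells held 7.06 ± 1.51 UMIs in control and 6.01 ± 2.95 UMIs in *Eed-cKO* (exact permutation p = 0.443).

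*Nts* was also counted outside neural cells. It was found in 15 of 347 control non-neural cells (4.32%, exact interval 2.44 to 7.03%) with 91 UMIs, against 6.67% of All-Hypo cells. Of the 15, 4 were high cells, 1 in the endothelial, 2 in the pericyte and 1 in the microglia or macrophage cluster. In *Eed-cKO*, 8 of 481 cells (1.66%, exact interval 0.721 to 3.25%) held 59 UMIs, and 1 endothelial-cluster cell had 34. That cell held 36958 UMIs in all and had UMIs of *Slc17a6*, *Slc32a1*, *Gad1* and *Gad2*. All 4 high control cells had *Slc17a6* and 3 had *Gad1*. The high cells of the genotype comparison are All-Hypo cells only.

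High *Nts* cells were split by transmitter genes, an analysis chosen after the data were seen. In control, 45 of the 97 had a UMI of a GABA gene (*Gad1*, *Gad2* or *Slc32a1*) and no *Slc17a6*, 35 had *Slc17a6* alone, 10 had both and 7 had neither. In *Eed-cKO*, the corresponding numbers were 3, 40, 14 and 8 of 65. Per embryo, high *Nts* cells with a GABA gene were 0.682 to 0.986% of All-Hypo cells in control (mean 0.815 ± 0.135%, n = 6) and 0 to 0.443% in *Eed-cKO* (mean 0.236 ± 0.168%, n = 9). The groups did not overlap (exact permutation p = 0.0002, the smallest possible; adjusted over the 3 tests of the split, p = 0.0006). High *Nts* cells with *Slc17a6* and no GABA gene were 0.519 ± 0.241% in control and 0.582 ± 0.319% in *Eed-cKO*, which did not differ beyond the spread of embryos (exact permutation p = 0.687).

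The share with a GABA gene was then taken within the high *Nts* cells and within the other neurons. Of the high *Nts* cells, 57.7 ± 10.5% had a GABA gene in the 6 control embryos and 25.7 ± 17.3% in the 7 *Eed-cKO* embryos with at least 5 such cells (exact permutation p = 0.00466, adjusted over the 3 tests, p = 0.00699). This difference of -32.0 percentage points was -19.4 for cells with at least 5 *Nts* UMIs (exact permutation p = 0.0227) and -58.5 for those with at least 20, where 5 control and 2 *Eed-cKO* embryos had enough cells. Of the other neuron-like cells, 55.1% had a GABA gene in control (50.5 to 57.3%) and 68.8% in *Eed-cKO* (58.3 to 78.9%). *Slc17a6* was found in 51.4% and 63.6% of these other neurons. The other neuron-like cells took in cluster 0, which had 12 control and 1443 *Eed-cKO* cells and *Tfap2b* among its leading genes. The values of the other neurons were not tested. The median depth was 7907 UMIs in high *Nts* cells of control and 7583 in those of *Eed-cKO*. Among all neuron-like cells it was 5553.5 and 4899 UMIs, respectively. The high *Nts* cells of control lay mostly in clusters 3 (30 cells), 5 (30), 6 (15) and 4 (9). Those of *Eed-cKO* lay mostly in clusters 3 (47), 6 (10), 5 (3) and 21 (3). As a whole, cluster 3 had 610 control and 383 *Eed-cKO* cells, cluster 4 had 835 and 122, cluster 5 had 600 and 297, and cluster 6 had 351 and 428. Cluster 21 had 243 *Eed-cKO* and 2 control cells and *Cga* and *Pomc* among its leading genes. The part of these cluster sizes in the split was not tested. Among the high *Nts* cells, 19 of the 97 and 6 of the 65 were marked as likely doublets.

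**Figure D4:**
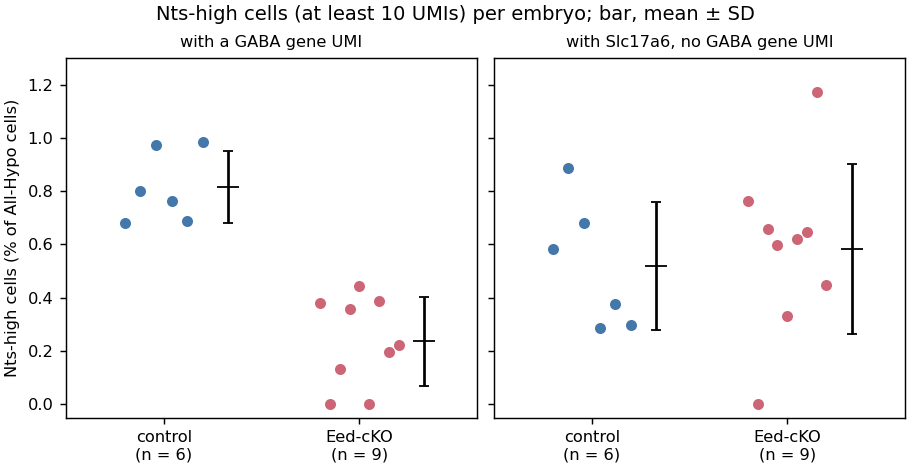
High *Nts* cells (at least 10 UMIs) as a share of All-Hypo cells (%), 1 point per embryo, with bars for the mean ± SD; left, cells with a UMI of *Gad1*, *Gad2* or *Slc32a1*; right, cells with *Slc17a6* and none of these. On the left every control embryo (0.682 to 0.986%) lies above every *Eed-cKO* embryo (0 to 0.443%), and on the right the groups overlap.

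Gene expression in the high *Nts* cells was compared with the other neuron-like cells, blocked by embryo. In control, 177 of 14097 genes (1.26%) were called by edgeR, 54 of them higher in high *Nts* cells, and in *Eed-cKO* 591 of 14251 (4.15%), 145 of them higher. In both, 25 genes were higher, i.e. 46.3% of the control and 17.2% of the *Eed-cKO* list. The genes most like *Nts* by fold change in control, among 18 called higher and present in at least 50% of the high cells, were *Zfhx4* and *Pbx3*, which encode homeodomain factors, *Robo2*, an axon guidance receptor, *Chchd10*, a mitochondrial protein, and *Calb2*, the calcium binding protein calretinin. Their log2 fold changes were 1.19, 1.08, 0.83, 0.82 and 0.80 in control over 6 embryos. They were 1.02, 1.26, 2.09, 1.45 and 2.995 in *Eed-cKO* over 7 embryos, all called higher. *Gad1* was higher in high *Nts* cells than in other neurons in control (log2 fold change 0.36, edgeR's adjusted p = 0.0257) and lower in *Eed-cKO* (-2.46).

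Between the genotypes, 137 of 9153 genes (1.5%) differed within the high *Nts* cells by edgeR's test, 50 higher and 87 lower in *Eed-cKO*. Without *Eed-cKO* embryo 1, 80 genes were called. The genes named next were chosen after their values were seen. The genes of GABA synthesis and transport were lower, with log2 fold changes of -3.32 for *Gad2*, -2.65 for *Gad1* and -2.51 for *Slc32a1*. *Gad1* was not lower in All-Hypo sums (log2 fold change 0.01, edgeR's adjusted p = 0.94). *Slc17a6* had a log2 fold change of 0.66 and was not called (edgeR's adjusted p = 0.11). The peptide genes *Gal* (-1.79) and *Cartpt* (-2.41) and the orphan nuclear receptor *Nr2f2* (-2.80) were lower. For *Cartpt*, the embryos ran from 9.03 to 893 CPM in control and from 0 to 70.0 CPM in *Eed-cKO*. Its share of high *Nts* cells with a UMI went the other way, with 13.4% in control and 16.9% in *Eed-cKO*. Transcription factor genes were among those higher, with log2 fold changes of 2.34 for *Bcl11b*, 1.82 for *Barhl1*, 1.19 for *Foxp2* and 1.18 for *Foxa1*. *Barhl1* and *Foxa1* are known from the mammillary, premammillary and subthalamic region.

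The same genes were counted as shares of high *Nts* cells per embryo. *Barhl1* was found in 15.4 ± 11.7% of high *Nts* cells in control (6.67 to 35.3%) and in 62.3 ± 15.4% in *Eed-cKO* (37.5 to 80.0%), without overlap of the embryos (exact permutation p = 0.00117). *Gad2* was found in 47.7 ± 13.6% and 10.8 ± 13.4%, and *Slc17a6* in 43.8 ± 18.9% and 83.8 ± 15.4%. Over 8695 genes, no share passed adjustment in this test (0.0% called; smallest adjusted p = 0.267; 553 genes at an unadjusted p under 0.05), whereas edgeR called 137 genes in the same cells. The 1716 splits of these embryos allow no p below 0.000583 in the permutation test. Few genes can therefore pass adjustment over so many, and the 0 calls do not decide whether shares differed. *Gal* (28.1% and 14.5%) and *Tac1* (29.5% and 40.4%), peptide genes of known *Nts* neuron subsets, did not differ beyond the spread of embryos in share (exact permutation p = 0.151 and 0.289).

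**Figure D5:**
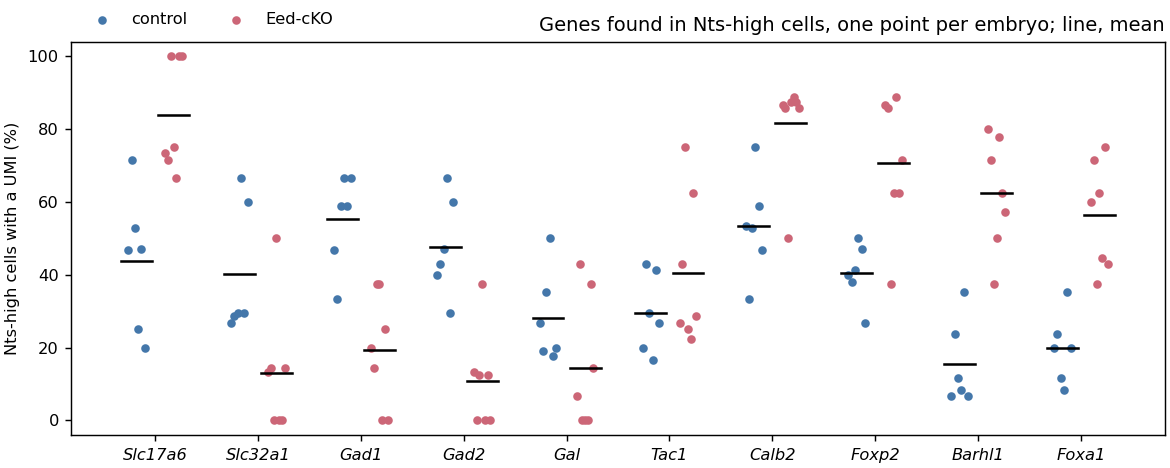
Share of high *Nts* cells in which a gene was detected (%), 1 point per embryo with at least 5 such cells (6 control, 7 *Eed-cKO*), with a line at the mean. *Slc17a6* and *Barhl1* are found in more cells in *Eed-cKO* (means 83.8% and 62.3% against 43.8% and 15.4%), and *Gad1* and *Gad2* in fewer (19.2% and 10.8% against 55.2% and 47.7%).

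The members were seldom counted in the same cell. No cell had at least 10 UMIs of 2 members, among 125 control and 72 *Eed-cKO* cells that had this many of 1, where the product of the shares gives 0.464 and 0.0671 cells, so a count of 0 is no departure from it. At the level of 1 UMI, 15 pairs were found in control cells, where the product of the shares gives 14.7, and 5 in *Eed-cKO*, where it gives 4.09. *Pmch* and *Nts* met in 9 control cells (7.30 by the product), *Hcrt* and *Nts* in 3 (4.00) and *Hcrt* and *Pmch* in 1 (1.01). The counts lay near the products, and no test was made of them.

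The other genes of the peptides' pathway were read from lists in the same All-Hypo fit, in which 25.9% of all genes were called and the median log2 fold change was 0.01. Of 8 receptor genes tested, 1 fell and none rose: *Hcrtr2*, a hypocretin receptor, was at 8.18 ± 1.83 CPM in control and 5.45 ± 1.86 CPM in *Eed-cKO* (log2 fold change -0.54, SE 0.20, edgeR's adjusted p = 0.0471). The embryos overlapped, and *Hcrtr2* did not pass the exact permutation test of CPM (adjusted p = 0.0768). The median log2 fold change of the receptors was -0.18. Of 10 genes of precursor processing and secretory granules, 4 fell and none rose (median -0.13). These were the convertase *Pcsk1* (-0.70), the granins *Scg2* (-0.64) and *Scg3* (-0.27) and the amidating enzyme *Pam* (-0.38). *Scg2* went from 566 ± 62.2 to 363 ± 34.0 CPM without overlap of the embryos.

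Of 6 genes known from hypocretin neurons, 2 fell and none rose (median -0.31): *Ebf2*, a transcription factor gene (-0.86), and *Pdyn* (-0.40). *Pdyn* did not pass the exact permutation test of CPM (adjusted p = 0.0714). Of 5 known from MCH neurons, 1 rose (median 0.01), namely *Cartpt* (1.16), from 24.4 ± 7.35 to 54.2 ± 17.0 CPM. *Cartpt* is made by many other hypothalamic neurons. Of 5 known from *Nts* neurons, 2 fell (median -0.11): *Gal* (-0.41) and *Crh*, corticotropin-releasing hormone (-2.16). *Gal* did not pass the exact permutation test of CPM (adjusted p = 0.118). Of 4 transmitter genes, *Gad2* fell (-0.25) and the others were not called (median -0.11). Of 26 other neuropeptide genes tested, 6 rose and 9 fell by edgeR's test (median -0.26). Among those called, *Agrp*, *Gal*, *Ghrh*, *Kiss1*, *Nmu*, *Pdyn* and *Vip* did not pass the exact permutation test of CPM. *Oxt*, oxytocin, had the lowest log2 fold change of the 26 (-3.17, SE 0.59), and *Pomc*, the precursor of melanocortins, the highest (2.33, SE 0.60). A single *Eed-cKO* cell held 1831 of the 3645 *Pomc* UMIs of that genotype, the exact permutation test of CPM did not pass (adjusted p = 0.268), and pituitary cells, whose markers were at a higher level in *Eed-cKO*, also make *Pomc*. Their part in it was not tested. *Hcrt*, at -4.61, lay below all 26 of these genes. Without control embryo 6 *Hcrt* was at -3.17, and the value of *Oxt* without that embryo is not given here, so their order then is not known.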

How the data were processed

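The authors deposited raw UMI counts of genes by cells in a single table. Their pipeline was SureCell RNA Single-Cell (STAR 2.5.2b, SAMtools 1.3, mm10), the libraries were joined unnormalized, and cells under 600 UMIs or 1.2 UMIs per gene were removed. The labels gave genotype, embryo and sex.

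From these counts, cells were clustered with scanpy 1.11.5 (10000 per cell, 2000 variable genes, 30 components, resolution 1). Clusters were named from marker lists (at least 3 markers raised 2-fold); after the data were seen, neuron-like was set as at least 3 neuron markers in at least 50% of cells. Cluster names are rebuilt and may differ from the study's. Scrublet's top 6% of cells per library were removed only as an alternative.

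Embryo sums were tested with edgeR 4.0.16 (quasi-likelihood, TMM, Benjamini-Hochberg at 0.05, at least 15 counts in all and 2 in 1 embryo). Shares were tested over all splits of the embryos, two-sided, for genes in at least 15 cells. Intervals and upper limits (3 counts) cover counting error only. Thinning to 2000 UMIs left out 1231 control and 1015 *Eed-cKO* cells. limma 3.58.1 and DESeq2 1.42.0 were alternatives.

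Named genes were the members, the list genes that were called or needed beside a member, and the 5 highest by fold change in member-high control cells; only *Nts* had enough of these. The members and all lists were chosen with earlier results of these data known. A further gene is not reported here. The edgeR and permutation steps were tested on simulated data. Sequences were RefSeq promoters.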

Additional observations from a re-analysis of the deposited data

Results flagged for a closer look

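Samples were looked at when they stood far from the rest of their group by Dixon's test. This marked 8 of 35 sets of values. The chance rate of about 1 in 20 holds for independent, normally distributed values. These values come from low counts, and several measure the same gene and embryo, so that rate does not apply here. Control embryo 6 stood above the other control embryos in 3 related measures of *Hcrt*: its level of 95.1 CPM (next 32.3), its share of cells with at least 10 UMIs of 0.296% (next 0.0973%) and its mean of 52.5 UMIs per positive cell (next 15.5). For *Pmch*, *Eed-cKO* embryo 1 stood above the other *Eed-cKO* embryos with 70.9 CPM (next 14.9). *Eed-cKO* embryo 7 stood apart in *Npvf*, with 2.09 CPM (next 0.486), 0.648% of cells with a UMI (next 0.224%) and 1.8 UMIs per positive cell (next 1.0). For *Qrfp*, *Eed-cKO* embryo 8 was highest with 1.21 CPM (next 0.521).

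In the non-neural cells, which the genotype comparisons leave out, 4.32% of the control and 1.66% of the *Eed-cKO* cells had a UMI of *Nts*, above what a count of 0 would allow. The difference between these shares was not tested.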

How the results depend on the processing

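Of 594 values under an alternative, 536 were rated the same and 3 reversed. For tested values, the same meant the same direction and side of the threshold. For counts of genes called it meant a count within a set fold of the main one. For values without a test it meant a difference within the control SD. The cause was not tested where a call changed. The level of *Hcrt* was not called by limma-voom (log2 fold change -2.86, adjusted p = 0.134), and that of *Npvf* not by DESeq2 (-2.80), limma-voom (-1.91), with sex as a covariate (-2.11) or by permutation of CPM (difference -2.35 CPM). Without 1 embryo each, the levels ran from -4.88 to -3.17 (*Hcrt*), -3.87 to -2.16 (*Pmch*), -0.61 to -0.35 (*Nts*, called without *Eed-cKO* embryo 1 or 8), -4.12 to -2.03 (*Npvf*, lost without control embryo 6) and -1.70 to -0.51 (*Qrfp*), and 3360 to 4384 genes were called. The 4079 genes called became 2022 by limma-voom, 6533 with libraries as samples and 2616 in neuron-like clusters. The 598 genes called by share became 64 at 2 UMIs or more, 1401 after thinning, 3774 with libraries as samples, 251 in neuron-like clusters, 936 without the largest library and 214 to 950 without 1 embryo. The 37 called by the share of high cells became 0 at 5 UMIs or more and with doublets removed, 61 at 20 per 10000 UMIs of the cell, 500 with libraries as samples, 261 without the largest library (control embryo 5) and 0 to 300 without 1 embryo, the highest without *Eed-cKO* embryo 4 (270) or control embryo 5 (300).

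In percentage points, the share of *Hcrt*-positive cells passed after thinning (-0.267), with libraries as samples (-0.424) and without *Eed-cKO* embryo 8 (-0.492 to -0.352 over embryos), *Pmch* was lost at 2 UMIs or more (-0.334), and *Npvf* moved to -0.204 in neuron-like clusters. High cells of *Pmch* passed at 20 UMIs or more (-0.216) and without *Eed-cKO* embryo 4 or control embryo 5 (-0.230 to -0.151 over embryos) and those of *Nts* with libraries as samples (-0.554) and without the largest library (-0.658; -0.610 to -0.420 over embryos). UMIs per *Hcrt*-positive cell did not pass after thinning (-4.81), and those of *Qrfp* reversed without control embryo 2 (-1.50 to 0.167). Genes called in high *Nts* cells of control rose from 177 to 280 at 5 UMIs or more (119 to 156 without 1 embryo), and those between genotypes went from 137 to between 80 and 177 without 1 embryo. The difference of *Nts* cells with *Slc17a6* alone was -0.0280 at 5 UMIs or more and -0.0102 without *Eed-cKO* embryo 8 (up to 0.137 over embryos). No paired analysis was possible because no litter held both genotypes and the embryo numbers used here only name the embryos. Calls on *Qrfp* rest on 25 UMIs in control and 9 in *Eed-cKO*.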
